A study of Mus musculus with 2 samples.

Results

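Small RNAs of 23 dpp (days after birth) mouse testes included a set of fragments cut from small nucleolar RNAs (snoRNAs), which are described here. Its members were chosen by their measured reads: they are the GENCODE M21 entries of type snoRNA with at least 200 sense reads of 24 to 32 nt in both deposited tables together, where a read with several places in the annotation was split evenly among them. Of 1507 snoRNA entries, 365 had at least a part of such a read and 89 passed this minimum. Because some entries overlap on the same strand, the 89 entries lay at 82 loci. The study sequenced small RNA from total testis RNA of C57BL/6 mice that were either Stambp-ps1+/- or Stambp-ps1-/-, with 1 sample of each genotype. By its name Stambp-ps1 is a pseudogene of Stambp, and the labels say neither how it was mutated nor how many animals gave RNA. Both tables are filed with the Stambp-ps1-/- sample, but 1 is named as KO and the other as het. Below, the tables go by those names (KO-named, het-named), and no genotype is claimed for either. Each table is a single library, so replicate spread is unknown and the tables were compared without a test. Intervals are exact 95% binomial intervals for counting error alone, because duplicates made by PCR could not be told from separate molecules.

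There were 54384974 reads under the KO name and 62773871 under the het name, all of 18 to 32 nt, of which 79.4% and 74.9% were of 24 to 32 nt. All 9 testis germ cell miRNAs checked were present, at a sum of 24492 reads per 1000000 reads of the table (RPM) under the KO name and 22459 RPM under the het name. The 4 miRNAs of somatic testis cells summed to 28071 and 22935 RPM. Liver Mir122 was at 0 in both tables, blood miRNAs summed to 63.7 and 43.1 RPM and neural ones to 9.28 and 6.87 RPM. A snoRNA fragment that is more frequent in a table can come from more cells of a type or from more RNA per cell, and bulk tissue cannot tell these apart.

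snoRNAs are short nuclear RNAs that guide the chemical modification of ribosomal RNA and other RNAs, and some take part in cutting the ribosomal RNA precursor. Most are released from introns of a host gene and protected by proteins. The C/D box snoRNAs carry a C box near the 5′ end and a D box near the 3′ end, with a second, less conserved set called C′ and D′ inside the molecule. They bind fibrillarin (Fbl), Nop56, Nop58 and Snu13 and direct methylation of the ribose, with the guide stretch lying just before the D or D′ box. The H/ACA box snoRNAs fold into hairpins, bind dyskerin (Dkc1), Gar1, Nhp2 and Nop10 and direct the change of uridine to pseudouridine. Stable fragments of both kinds have been found in small RNA libraries of many tissues. In the germ line, piRNAs are small RNAs of similar length that mostly begin with U. Whether any fragment described here acts as a piRNA was not tested.

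The fragments were blocks with fixed ends rather than an even scatter along the snoRNA. To show this, the 6 sequences that follow give the annotated snoRNA 5′ to 3′ in the DNA alphabet, from the GENCODE M21 transcripts on GRCm38, with the most frequent read of 24 to 32 nt in capitals. In the first 3 the leading read lies in the 5′ part, in the next 2 in the 3′ part, and in Snord118 in the middle.
Snord57 (chr2:130278016-130278087, plus strand): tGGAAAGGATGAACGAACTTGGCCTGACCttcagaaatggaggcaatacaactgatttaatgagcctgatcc
Gm23212 (chr1:161036682-161036741, plus strand): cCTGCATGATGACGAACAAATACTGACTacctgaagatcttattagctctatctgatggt
Snord69 (chr14:31014287-31014366, minus strand): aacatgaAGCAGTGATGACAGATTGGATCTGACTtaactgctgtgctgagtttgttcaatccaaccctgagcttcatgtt
Gm25855 (chr19:8723993-8724064, plus strand): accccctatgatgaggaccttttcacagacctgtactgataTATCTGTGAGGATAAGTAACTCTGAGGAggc
Snord104 (chr11:106500993-106501062, plus strand): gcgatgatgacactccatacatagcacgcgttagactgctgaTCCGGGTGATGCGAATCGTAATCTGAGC
Snord118 (chr11:69073427-69073561, plus strand): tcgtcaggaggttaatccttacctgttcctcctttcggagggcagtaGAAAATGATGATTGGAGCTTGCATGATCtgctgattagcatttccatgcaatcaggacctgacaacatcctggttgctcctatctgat

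The snoRNAs with most reads were Snord57, Gm25855, Gm23212, Snord104, Snord2, Snord69, Snord118, Gm24452, Snord85 and Gm25789, in this order. The counts that chose them are given as a description. Snord57, a C/D box snoRNA within the gene of the C/D protein Nop56, had 8065 reads in the KO-named table (148 RPM, 145 to 152) and 7902 in the het-named table (126 RPM, 123 to 129). Gm25855, in the host gene Snhg1, had 7743 reads (142 RPM, 139 to 146) and 6432 (102 RPM, 99.97 to 105). Gm23212, in the host gene Gas5, had 7100 reads (131 RPM, 128 to 134) and 6140 (97.8 RPM, 95.4 to 100.3). All 3 were higher in the KO-named table, with intervals that did not overlap, but on the scale of miRNA reads Snord57 had a log2 ratio of -0.01. This direction was common: on the scale of all reads, 94.0% of all genes with at least 1000 such reads were higher there. The interval of the ratio lay above 1 for 43.3% of all genes with at least 200.

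Snord104, with no annotated host, had 6800 reads (125 RPM) and 5572 (88.8 RPM). Snord2, in the translation factor gene Eif4a2, had 5172 reads (95.1 RPM) and 4321 (68.8 RPM). Snord69, in the nucleolar protein gene Gnl3, had 4806 reads (88.4 RPM) and 3570 (56.9 RPM). Snord118 is the U8 RNA, which acts in processing of the ribosomal RNA precursor and is transcribed from its own gene. It had 4602.5 reads (84.6 RPM) and 3414.5 (54.4 RPM). The remaining leaders were Gm24452 in Snhg1 (63.4 and 45.1 RPM), Snord85 (59.5 and 43.6 RPM) and Gm25789 in Gas5 (39.3 and 27.7 RPM). These 10 were also the 10 with most reads per 100 nt of annotated length.

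The 10 leading entries held 63.6% (63.3 to 63.9) of the reads under the KO name and 59.3% (59.0 to 59.7) under the het name, and the 5 leading ones 41.8% and 40.3%. With overlapping entries counted once, the set summed to 83513.5 and 75282.5 reads, or 1536 and 1199 RPM. That was 0.193% (0.192 to 0.195) and 0.160% (0.159 to 0.161) of the reads of 24 to 32 nt. At the other end, Gm25854 had 202 reads and Gm24837 208 in both tables together, just inside the minimum, while Gm25835 had 199 and Snord82 had 184, just outside it.

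**Figure D1:**
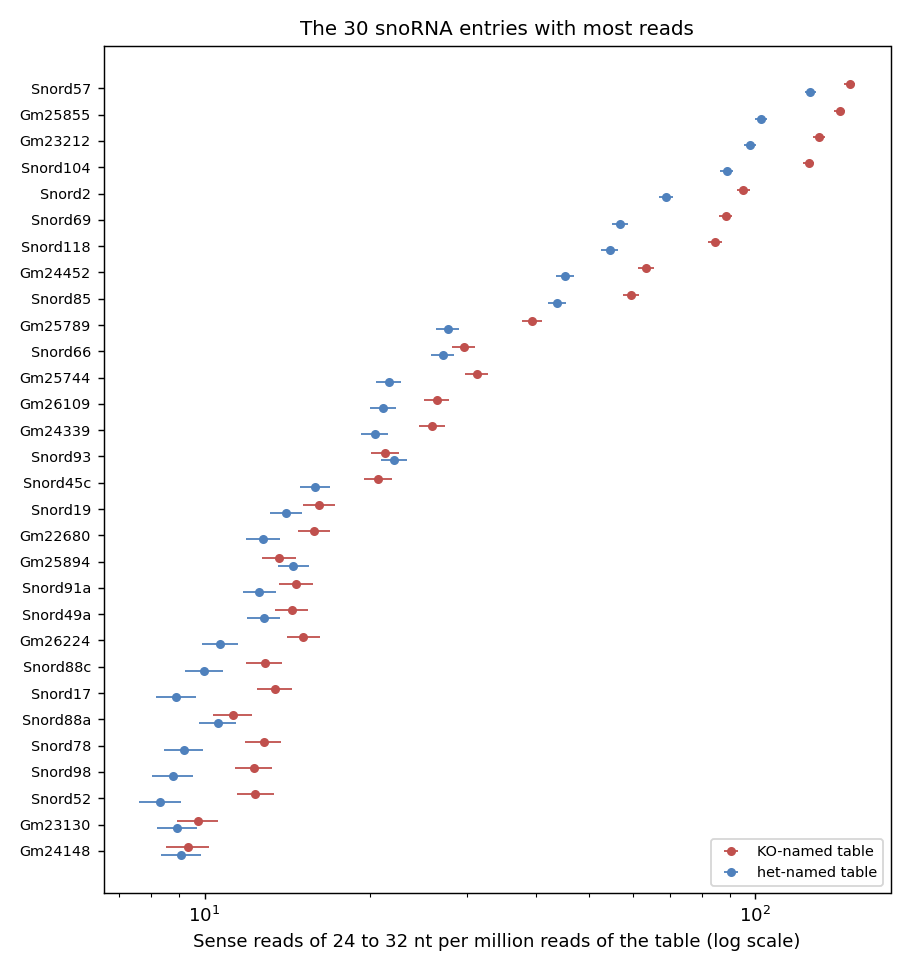
Sense reads of 24 to 32 nt in RPM (x axis, log scale) for the 30 snoRNA entries with most reads (y axis), with red points (KO-named), blue points (het-named) and bars for the exact 95% interval. Snord57 leads at 148 and 126 RPM, and all of the 10 leading entries are higher in the KO-named table on this scale, as are 94.0% of all genes with at least 1000 such reads. On the scale of miRNA reads Snord57 is not.

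Most entries gave fragments from 1 side only. Of the 89 entries, 41 had at least 90% of their reads centred before the midpoint of the annotated snoRNA, 26 had at most 10% there, and 22 lay between. The 41 include the Rnu3b and Gm25203 entries, which share reads. Their reads were scattered within that part, and their leading reads held only 6.9% (Rnu3b) and 8.2% (Gm25203). Over all reads of the set, 36.5% (36.2 to 36.8) under the KO name and 39.8% (39.5 to 40.2) under the het name began within 5 nt of the annotated 5′ end. Another 44.9% (44.6 to 45.2) and 42.8% (42.5 to 43.2) ended within 5 nt of the annotated 3′ end, and 18.6% and 17.3% did neither. By entry, 38 had most of their reads at the 5′ end, 28 at the 3′ end and 23 at neither.

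Of the leaders, Snord57 had 99.96% of its reads before the midpoint, Gm23212 99.8% and Snord69 99.8%. Gm25855 had 0.120% there, Snord104 0.0808% and Snord2 0.790%, so their reads came from the 3′ part. Snord118 gave a block from nt 48 to 75 of its 135 nt, away from both ends. Its leading read held 95.1% of its reads under the KO name and 93.7% under the het name.

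The same leading read came first in both tables for 84 of 89 entries; the exceptions were Snord93, Snord87, Mir3096, Snord64 and Gm26330. The leading read held between 5.47% and 96.4% of an entry's reads, with a median of 46.8%, and at least 50% in 36 entries. It was most dominant in Gm25744, whose read from nt 1 to 29 held 96.0% and 96.9% of its reads. The most frequent start position held a median of 59.1% of reads and the most frequent end position 68.2%. In 42 entries the start was the more uniform end and in 47 the 3′ end. Gm23212 shows a fixed 3′ end with a looser start, at 97.0% and 44.5%, while Gm25855 shows the opposite, with 87.2% of its reads at the main start and 51.8% at the main end.

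The side of origin was nearly the same in both tables. The share of reads before the midpoint differed between them by a median of 1.23 percentage points over the entries. Snord95, in Rack1, whose protein sits on the ribosome, differed most, with 66.7% of 127.5 reads under the KO name and 41.3% of 155 reads under the het name. Gm23130, in Rps12, had 31.2% and 45.9%, and Gm23246, in Snhg1, had 36.0% and 49.4%. These entries gave fragments from both sides, and they were picked out after their values were seen.

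**Figure D2:**
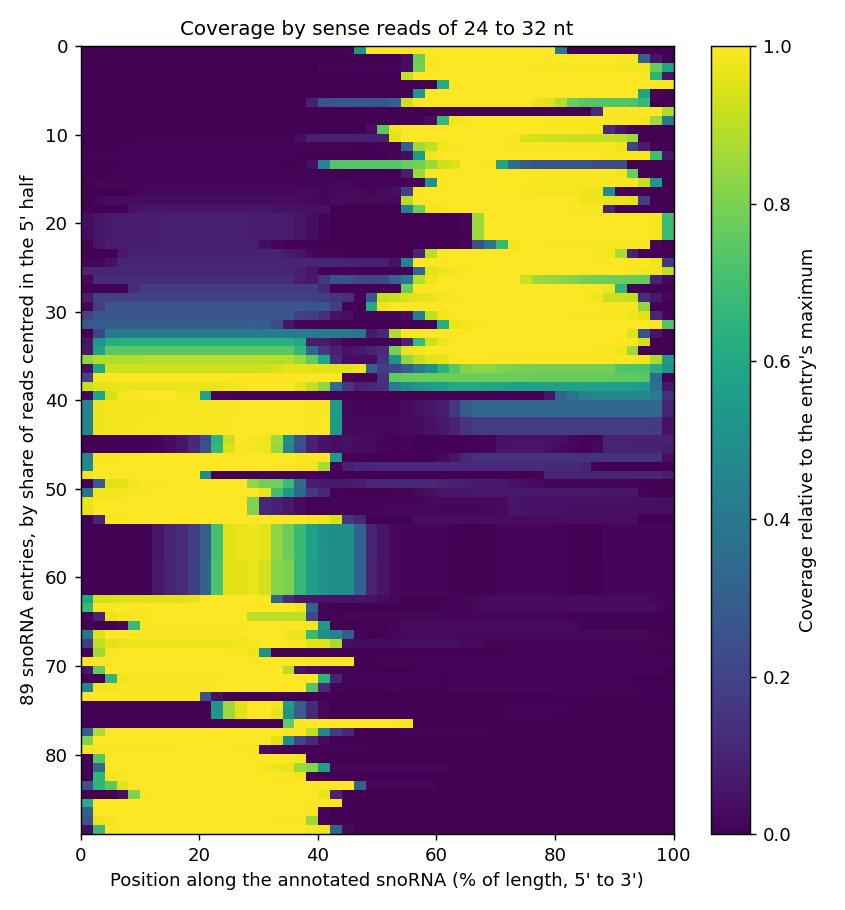
Coverage by sense reads of 24 to 32 nt of both tables along each of the 89 snoRNA entries (rows), from the 5′ end (left) to the 3′ end (right) as a percentage of the annotated length, coloured from 0 to the maximum of the entry. Rows are ordered by the share of reads centred before the midpoint, and most show 1 block: 41 entries have at least 90% of reads before the midpoint and 26 at most 10%. The 41 include the Rnu3b and Gm25203 entries, which share reads and have scattered reads in that part.

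Few reads ran past the annotated ends where this could be seen. Without a genome sequence, a read that crosses an end was found only where another annotated exon covers the flanks, which held for 20 nt on both sides of 39 entries. For these, reads crossing an end made up 1.96% of all, and less than 5% in 36 of the 39. The exceptions were Snord14c and Snord14d, each with 54.8% of reads crossing an end, and Snord21 with 24.7%. Reads crossing the ends of the other 50 entries were not seen in most cases and are not in the counts.

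Most reads of the set ended at a fixed distance from the D box motif. The D box motif was searched as CTGA and the C box motif as TGATGA, on the strand of the read. Of the reads of the set, 72.9% under the KO name and 70.1% under the het name ended exactly 2 nt after the last CTGA. Among all windows of the same lengths that can be cut from the same snoRNAs, 3.21% do so, and among the other reads of 24 to 32 nt 1.54% did. With 0 to 3 nt after the motif the shares were 83.5% (83.2 to 83.7) and 80.9% (80.6 to 81.2), against 12.7% of the windows and 3.30% and 3.10% of other reads. The distances were chosen after the reads were seen.

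At the 5′ side, TGATGA began after exactly 5 nt in 23.3% of the reads of both tables and after 6 nt in 11.8%, against 1.24% and 1.13% of the windows. It lay anywhere in 39.0% of the reads of the set and in 1.03% of other reads of this length. Boxes that differ from these letters were not counted. The leading reads of 10 entries follow, from the deposited tables, with every CTGA and TGATGA in capitals. The first 6 come from the 5′ part of their snoRNA and the last 4 from the 3′ part.
Snord57: ggaaaggatgaacgaacttggcCTGAcc
Gm23212: ctgcaTGATGAcgaacaaataCTGAct
Gm25744: agtaaTGATGAtttctggtgattCTGAgt
Gm24339: atcagTGATGAaaatagccaaatCTGAgc
Snord21: gccaaTGATGAcaccacactaaCTGAgc
Scarna9: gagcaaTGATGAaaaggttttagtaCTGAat
Snord104: tccgggtgatgcgaatcgtaatCTGAgc
Gm24452: ttgcaatgatgtcatcttactaCTGAaa
Gm25789: ttactTGATGAtagtaaaagatCTGAtg
Snord17: caccaagatgagtggtgcaaatCTGAtc
In all 10 the last CTGA is followed by 2 nt. The leading read had this form in 54 of 89 entries, 28 of them with most reads before the midpoint and 26 with most reads after it. In C/D box snoRNAs the D′ box lies inside the molecule and the D box near the 3′ end.

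**Figure D3:**
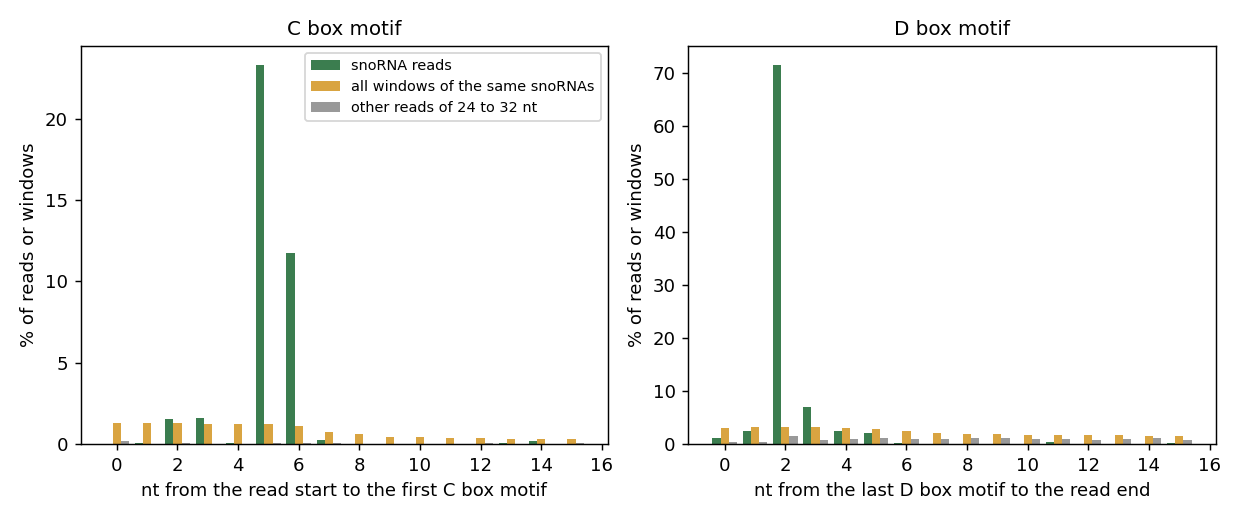
Distance in nt (x axes) from the read start to the first TGATGA (left) and from the last CTGA to the read end (right), as a percentage (y axes) of the snoRNA reads of both tables, of all windows of the same lengths in the same snoRNAs, and of the other reads of 24 to 32 nt. The snoRNA reads peak at 5 nt for the C box motif, with 23.3%, and at 2 nt for the D box motif, with 71.6%.

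The leading read held no CTGA in 21 entries. They include the 8 Rnu3b entries and both entries of Snord80, as well as those in the lines that follow, shown because the last 4 had ratios whose interval lay below 1 on the scale of all reads.
Snord118: gaaaaTGATGAttggagcttgcatgatc
Snord14c: tcgctgTGATGAtggattccaaaacc
Snord67: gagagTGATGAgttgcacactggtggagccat
Snord55: gcggaTGATGAcacctgggtatgct
Gm25091: cttaaTGATGAttgtctgtttgattgct
All 5 hold TGATGA near their start. Snord14c is a U14 RNA, which acts in ribosomal RNA processing.

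The annotated entries themselves carry these boxes. CTGA lay in the last 20 nt of 87 of the 89 entries (97.8%), against 35.4% of all 1507 snoRNA entries, and TGATGA in the first 20 nt of 52 (58.4%), against 21.7%. The exceptions for CTGA were Gm23297 and Gm23262. The triplet ACA, which stands 3 nt before the 3′ end of H/ACA box snoRNAs, was at that place in 3 entries (3.37%), against 18.3% of all entries. By symbol, 38 entries were C/D box snoRNAs (Snord), Scarna9 was of the Cajal body type, 50 had symbols that give no class and none had an H/ACA box symbol (Snora). Gm23297, among the 50 without a class, held ACA at that place. It had neither CTGA in its last 20 nt nor TGATGA in its first 20 nt, so an H/ACA box member is possible.

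Summed over their entries, the classes also differed in read length. Over all 98 Snord entries, 91.8% (91.6 to 92.0) of the sense reads of 18 to 32 nt were of 24 to 32 nt. Over the 42 Snora entries only 18.4% (17.1 to 19.8) were, with 613 reads of 24 to 32 nt and 2716 of 18 to 23 nt. Single Snora entries differed. Snora24 had more of the longer reads than any other, 59 under the KO name and 68 under the het name, and only 6 of 18 to 23 nt. Snora41 had 944.5 reads of 18 to 23 nt (471 and 473.5) but 2.5 longer ones, and Snora44 had 916 and 19. Together Snora41 and Snora44 held most of the 2716 shorter reads, so the share of the class rests largely on them. At 18 to 23 nt, 2 of the 42 Snora entries and 12 of the 98 Snord entries reached 200 reads. The part of the length window in the absence of Snora entries was not tested. Within the set, 85 of 89 entries had most of their reads at 24 to 32 nt. The exceptions were Gm23246, with 759 longer and 3609 shorter reads, Snord55, with 217 and 1194, and both entries of Rnu3a.

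The reads of the set were shorter than the bulk of the small RNAs. They peaked at 28 nt, with 36.9% under the KO name and 35.3% under the het name, followed by 27 nt (22.2% and 20.6%) and 29 nt (15.9% and 16.5%). All reads of 24 to 32 nt peaked at 30 nt, with 19.7% and 18.8%, and only 10.5% in each table were of 28 nt. By entry, the most frequent length was 27 nt in 21, 28 nt in 17 and 29 nt in 12. All 12 U3 entries, which share reads, are among those at 27 nt, and with 1 entry per locus 28 nt led with 17, followed by 27 nt with 15. It was 32 nt in 9 entries, where the tables end and longer fragments would not be seen.

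First bases were spread over all 4 letters. Of the reads of the set, U came first in 28.6% (28.3 to 28.9) under the KO name and 29% (28.7 to 29.3) under the het name, G in 29.02% and 29.6%, C in 23.0% and 23.0%, and A in 19.4% and 18.4%. Among all reads of 24 to 32 nt, 78.8% and 73.6% began with U. Single entries differed in the base they preferred. More than 50% of reads began with G in 25 entries, with U in 22, with A in 13 and with C in 11. Snord57 began with G in 87.7% of its reads, Gm24452 with U in 96.8%, Snord69 with A in 99.5% and Snord2 with C in 90.3%. Antisense reads came to 1.25 under the KO name and 0 under the het name over the whole set, with entries summed.

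**Figure D4:**
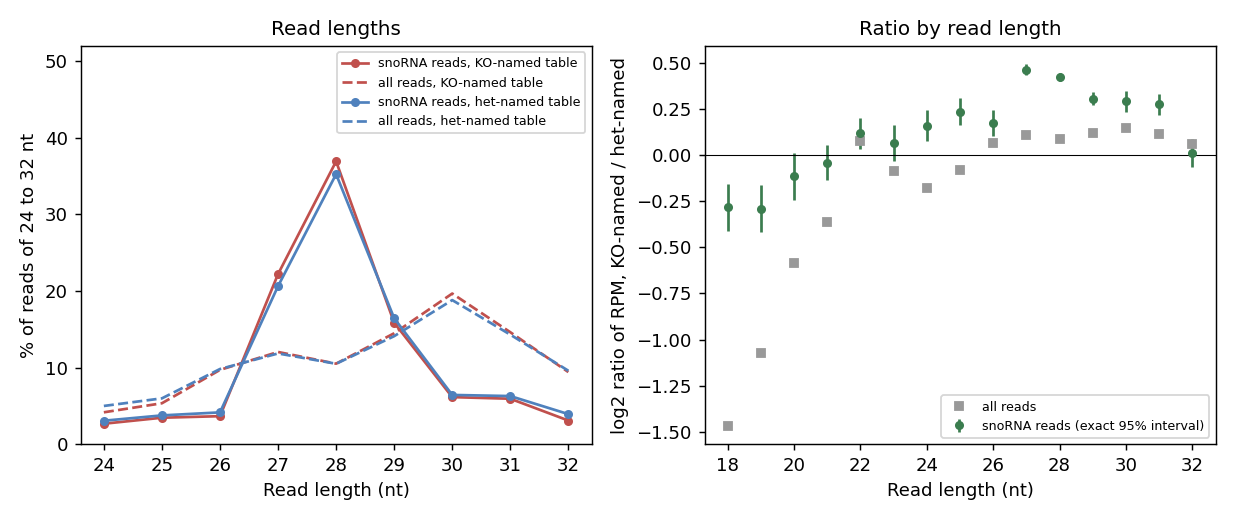
Left: read length (x axis) against the percentage of reads of 24 to 32 nt (y axis) for the snoRNA reads and for all reads of each table; the snoRNA reads peak at 28 nt and all reads at 30 nt. Right: log2 ratio of RPM, KO-named over het-named (y axis), at each read length for the snoRNA reads, with exact 95% intervals, and for all reads; the snoRNA ratio is highest at 27 nt, at 0.46, and below 0 at 18 to 21 nt.

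Host genes grouped the set. An annotated gene on the same strand contained 80 of the 89 entries. Snhg1, a noncoding host gene, held 5 entries with 13169 and 11363 reads, from Gm23246 with 759 reads to Gm25855 with 14175 in both tables. Gas5, a noncoding host gene that is induced when growth stops, held 6 entries at 5 loci with 11354 and 9659 reads, from Snord80 with 568 to Gm23212 with 13240. The Gas5 sum counts both Snord80 entries, which share their reads. The genes of the C/D proteins Nop56 and Nop58 are themselves hosts, of Snord57 and Gm23650 and of Snord11.

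The 8 Rnu3b entries, copies of the U3 RNA that acts in processing of the ribosomal RNA precursor, overlap in pairs at 4 loci within Tex14. Rnu3a and Gm25203 are also listed as overlapping entries. Their reads had several places, and their values are thus not independent of each other: each Rnu3b entry had 348.1 reads under the KO name and 428.1 under the het name or 347.9 and 427.9. All 12 U3 entries were below 0 on the scale of all reads, at log2 ratios from -0.21 to -0.09, and their intervals included 1. Reads of U3 were scattered, and the leading read of Rnu3a held 6.39% and 4.78% of its reads. In the whole set 64 entries had at least 90% of their reads at 1 place, and 20 had under 10%.

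Some entries of imprinted regions were looked at singly. Snord64, in the region of the Prader-Willi syndrome, had 225 and 165 reads. None of the 17 entries of Snord115 and Snord116, the repeated snoRNAs of the same region that are known from brain, had a read of 24 to 32 nt in either table, and a count of 0 allows up to 3 reads, or 0.0552 RPM (KO-named) and 0.0478 RPM (het-named). AF357428 and Gm25854, in the imprinted Dlk1-Dio3 region, had 125 and 120 reads and 119 and 83 reads.

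Summed over the set, the fragments were 1.28-fold higher in the KO-named table (1.27 to 1.29), a log2 ratio of 0.36. When each distinct sequence counted once, whatever its reads, the log2 ratio of the sum was -0.0046; such a count responds little to the number of reads and depends on the depth of the table. The median log2 ratio was 0.21 over the 89 entries and 0.21 over all 3734 genes with at least 200 such reads. Both medians were on the scale of all reads, and both were -0.04 on the scale of miRNA reads, so their direction depended on the scale. The 89 entries include the 12 U3 entries, which share reads and were all below 0 on the scale of all reads. These copies lower the median of the set on either scale. The log2 ratio of the sum was 0.14 after scaling to the median gene and 0.11 with miRNA reads.

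More of the set lay far from 0 on either side than of all genes tested. Of the 89 entries, 61 (68.5%) were above 0, against 86.7% of all genes tested, and on the scale of miRNA reads 41 were. The 28 below 0 on the scale of all reads include the 12 U3 entries, which share reads. A log2 ratio at or past 0.5 was seen in 13.5% of the entries and 5.28% of all genes, and one at or below -0.5 in 5.62% and 0.991%. These 12 higher and 5 lower entries were counted on the scale of all reads. The 5 lower ones include Snord14c and Snord14d, most of whose reads are shared. On the scale of miRNA reads 1 entry was at or past 0.5 (1.12%, against 0.455% of all genes) and 8 were at or below -0.5 (8.99%, against 2.49%). On the scale of all reads the set had 1 entry at or past 1, Gm24837, where 0.0268% of all genes were. None was at or below -1 on that scale, where 0.348% of all genes were. Gm24837, in Ubap2, had 135 reads under the KO name and 73 under the het name, a ratio of 2.13 (1.59 to 2.88), a log2 ratio of 1.09 on the scale of all reads and of 0.84 on the scale of miRNA reads. It was the only gene of the 3734 at or past 1 on the scale of all reads. Snord67 was at -0.92 on that scale and at -1.17 on the scale of miRNA reads. Which entry was called thus depended on the scale.

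By abundance, a split on the reads that chose the set, the 32 entries with at least 1000 reads had a median log2 ratio of 0.40, with 30 above 0 (93.8%). Of all 878 genes with that many reads 94.0% were above 0, with a median of 0.24. The 57 entries with fewer reads had a median of 0.09, with 31 above 0 (54.4%), against 0.20 and 84.5% for all such genes. They include the 12 U3 entries, which share reads and were all below 0; without these, 31 of 45 (68.9%) were above 0, with a median of 0.17. Snord118 stood at 1.56-fold (1.49 to 1.63), Snord69 at 1.55 (1.49 to 1.62) and Snord17 at 1.51 (1.35 to 1.69). Snord57, the most abundant, stood at 1.18 (1.14 to 1.22). Over the set, the interval lay above 1 for 44 entries (49.4%, against 43.3% of all genes tested), below 1 for 7 (7.87%, against 1.82%) and included 1 for 38. On the scale of miRNA reads 21 lay above 1 (23.6%, against 7.07% of all genes) and 30 below 1 (33.7%, against 12.6%). These 30 include the 12 U3 entries, which share reads, and the balance on that scale rests on them. The 7 below 1 on the scale of all reads were Snord67, Snord14c, Snord14d, Mir3096, Snord55, Snord83b and Gm25091, named after their values were seen.

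Snord67 was lowest, with 97 reads under the KO name and 212 under the het name (ratio 0.528, 0.411 to 0.675). Snord14c, in the heat shock gene Hspa8, had 229.5 and 442 (0.599, 0.510 to 0.706), and Snord14d, at the same host, had 230.5 and 440; only 1.94% of the Snord14c reads had 1 place, so both values rest on shared reads. With the reads that cross their ends added, the log2 ratios of Snord14c and Snord14d were -0.70 and -0.69. Mir3096, an entry with a miRNA name that GENCODE types as a snoRNA and that shares reads with Snord93, had 254.5 and 471.5 (0.623, 0.531 to 0.725). Snord93 itself had 1158.5 and 1385.5 (0.965, 0.891 to 1.04). Snord55 had 81 and 136 reads (0.687, 0.516 to 0.912).

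The entries were also grouped by the form of the fragment, after the values were seen. The 54 entries whose leading read ended 2 nt after CTGA had a median log2 ratio of 0.33, with 48 above 0. That share is near the 86.7% of all genes tested that were above 0 on the scale of all reads. The 21 with no CTGA in the leading read had a median of -0.09, with 7 above 0, and the remaining 14 had -0.18, with 6 above 0. Both entries of Rnu3a and both of Gm25203, which share reads and were all below 0, are among the 14. Of the 7 entries with an interval below 1 on the scale of all reads, 6 had no CTGA in the leading read, Mir3096 being the exception. With 1 entry per locus the 16 entries without CTGA had a median of -0.09, with 6 above 0 and 10 below. Without the Rnu3b loci the remaining 12 had -0.08, split evenly with 6 above 0 and 6 below. The 15 entries whose leading read held under 20% of reads, of which 12 were U3 entries that share reads, had a median of -0.09, with 1 above 0 and 14 below. By number of places, the 64 entries with at least 90% of reads at 1 place had a median of 0.35, with 56 above 0. This share, too, is near the 86.7% of all genes tested. The 20 with under 10% had -0.09, with 5 above 0. These 20 are not independent of each other. They include the Rnu3b and Gm25203 entries, Snord14c and Snord14d, all below 0, which share reads with their copies. The 5 above 0 were Gm26135, Snord50b, Gm24463, Snord50a and Gm23017, which have the same leading read. The part of the number of places in the ratios was not tested. On the scale of miRNA reads all log2 ratios shift by -0.25.

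Read length moved with the ratio as well. The log2 ratio of the set was 0.46 at 27 nt and 0.42 at 28 nt, 0.16 at 24 nt and 0.01 at 32 nt. Reads of 18 to 23 nt from the same entries summed to 149 and 154 RPM, a ratio of 0.971 (0.942 to 0.9999) and a log2 ratio of -0.04. Short reads of the whole KO-named table were also lower, at a log2 ratio of -1.47 at 18 nt and -1.07 at 19 nt, against -0.28 and -0.29 for the set. The part of this shift in length in the ratios of single entries was not tested.

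**Figure D5:**
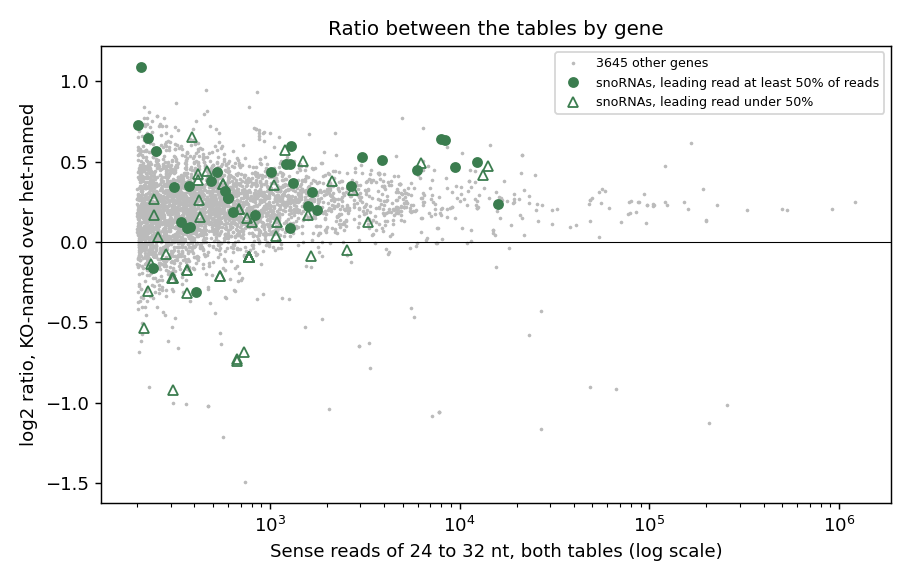
Log2 ratio of KO-named over het-named RPM (y axis) against the reads of both tables together (x axis, log scale) for the 89 snoRNA entries and the other 3645 genes with at least 200 sense reads of 24 to 32 nt. Filled circles are snoRNAs whose leading read holds at least 50% of reads, of which 34 of 36 lie above 0, where 86.7% of all genes tested do. Open triangles are the other 53, of which 27 do. The 53 include the 12 U3 entries, which share reads and all lie below 0.

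The proteins of the snoRNA particles gave few small RNAs. Of the C/D proteins, Nop58 alone reached 200 sense reads of 24 to 32 nt outside snoRNA entries, with 232.2 and 226.7 (log2 0.24); Snu13 had 101.1 and 83.8, Nop56 53.1 and 48.4 and Fbl 18.7 and 15.8. None of the 4 H/ACA proteins reached 200; Nhp2 had 90 and 57 reads. Of 8 assembly factors, Ruvbl2 alone did, with 147 and 166 (log2 0.03). Of 17 listed noncoding host genes, 15 were annotated under these symbols and 6 reached 200 reads. All 6 were above 0 on the scale of all reads, with a median log2 ratio of 0.45, against 86.7% and 0.21 for all genes tested; Snhg14 and Snhg5 were the 2 with most reads, at 0.11 and 0.18, and both are below 0 after the shift of -0.25 to the scale of miRNA reads. Gas5 had 143 and 119 reads outside its snoRNA entries, against 11354 and 9659 in them.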

How the data were processed

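Small RNA was measured in testes of 2 mouse samples. Per the labels' protocols, RNA was taken with Trizol, small RNA was cut from a denaturing gel, and directional libraries were made with the TruSeq Small RNA kit. The authors deposited 2 tables of distinct sequences with their read counts, as whole numbers that are not normalized. For trimming, aligner and build, the sources used here name none. Both tables are recorded under 1 sample, so neither entered a genotype group.

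Each sequence was matched without mismatches to GENCODE M21 transcripts (GRCm38) by a matcher written in Python 3.11.15 with numba 0.67.0 and tested on simulated data. A read was split evenly over its annotated places, and sequences with over 2000 matches (102 sequences) were left out. No genome sequence was used, so places outside annotated transcripts were not seen. The share of reads that matched was 26.3% (KO-named) and 23.8% (het-named). Ratios of reads per 1000000 reads of a table (RPM) had 0.5 reads added to each count. Intervals are Clopper-Pearson intervals and, for ratios, conditional binomial ones (scipy 1.17.1), on counts rounded to whole reads. A gene was called at or past 1 in log2 size.

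Genes are named by rule: the 10 entries with most reads, those called, the entries nearest the minimum of 200 reads, the leading entry of each class, and up to 4 genes of each list. Other entries were named after their values were seen. The members and lists were chosen with earlier results of these data known. Other scalings, read minimums, lengths, end windows, place rules and counting of distinct sequences were tried as alternatives. Some host genes are not reported here.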

Additional observations from a re-analysis of the deposited data

How the results depend on the processing

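The direction of the median ratio between the tables depends on the scale, and that of the summed ratio was the same on the 4 scales tried. The median log2 ratio of the snoRNA entries, 0.21 on all reads, was 0.12 on reads of 24 to 32 nt, -0.043 on miRNA reads and -0.0049 on the median gene; the summed reads, at 0.36, gave 0.27, 0.11 and 0.14. It was 0.35 for the median and 0.39 for the sum with reads of 1 place only, 0.021 and -0.0046 with distinct sequences counted, and -0.19 and -0.043 for reads of 18 to 23 nt. The median was 0.13 over 150 entries with at least 50 reads, 0.40 over 32 with at least 1000, and 0.23 with 1 entry per locus. The 12 U3 entries, which share reads and were all below 0 on all reads, lower the median of the set. Entries at or past 1 in size, 1 at first, were 2 on reads of 24 to 32 nt, 2 with reads of 1 place, 7 with at least 50 reads and 0 with at least 1000. On miRNA reads and on the median gene there was also 1, but it was Snord67, at -1.17 and -1.13, and not Gm24837.

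Of all snoRNA reads, 38.1% began at the 5′ end and 43.9% ended at the 3′ end. With a window of 2 nt these were 32.7% and 20.5%, with 10 nt 43.8% and 46.1%, with distinct sequences 27.95% and 28.9%, for reads of 18 to 23 nt 46.6% and 20.7%, and without Snord57 31.2% and 48.8%; with reads of 1 place the first was 37.7%. First base U, 28.8%, was 31.6% with distinct sequences, 21.7% for reads of 18 to 23 nt and 30.7% without Snord57. The 5 leading entries, at 41.1%, held 8.60% of distinct sequences and 3.56% of reads of 18 to 23 nt. C/D box symbols, at 56.8%, held 36.6% of reads of 18 to 23 nt, and entries with CTGA in the last 20 nt held 99.4%. Apart from the changed scale, window or set of reads itself, the cause was not tested. The median gene, 1 entry per locus, the class by CTGA and the counts of intervals on other scales were chosen after seeing the data.

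No paired analysis was possible because there is 1 library per table and no test. The single library per table limits the comparison, and so does depth for entries with few reads: counting error alone leaves 38 of 89 ratio intervals including 1.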
